A study of Homo sapiens with 7 samples.

Results

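The MYC and MAX network is a family of transcription factors that pair through a basic helix-loop-helix leucine zipper and bind DNA at the E-box. Its measured members here are MYC, MYCN, MYCL, MAX, MXD1, MXD3, MXD4, MXI1, MNT and MLX. These 10 genes were chosen by symbol, as the table rows whose RefSeq accession maps to them, and they took 13 of 24000 rows and 10 of 17217 named genes. MAX was read by 3 rows, MYCL by 2 and each other member by 1.

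The arrays were hybridised with Cy3-labelled RNA from Daoy, a long-established line of human medulloblastoma cells, labelled WT and grown untreated in a serum-containing MEM-type medium. Biological replicate 2 had 4 arrays (numbers 1 to 4) and biological replicate 1 had 3 (numbers 1, 2 and 4). Each biological replicate was run on a slide of its own, so that culture and slide cannot be told apart, and the arrays within a replicate are technical repeats. All p-values below therefore measure the spread between arrays, for 2 extracts of 1 cell line, and no condition was compared.

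The values are log2 intensities that had been quantile normalized before deposit, with a median of 8.15 on every array. Background was set at the 95th percentile of 364 olfactory receptor genes, taken as not expressed, which gave 7.24 in replicate 2, 7.79 in replicate 1 and 7.54 for the mean of the replicates. An intensity depends on its probes as well as on its transcript, so levels were not ranked between genes. Pearson's r across rows was 0.985 to 0.994 between arrays of 1 replicate and 0.948 to 0.962 between replicates. Of the marker genes, 8 of 11 neural and tumour genes and 8 of 8 mesenchymal genes lay above background, against 1 of 8 leukocyte, 2 of 6 epithelial and 1 of 4 endothelial genes. The neural stem cell marker NES and the medulloblastoma factor OTX2 were among the 3 tumour genes below it, with GLI1 of the hedgehog pathway. Between the replicates, 3 of the 8 mesenchymal markers rose in replicate 2 and 3 fell (limma, adjusted p under 0.05). Of the 11 neural and tumour genes, 2 rose and 3 fell. By the same test, 25.5% of all named genes rose and 24.2% fell. Among all genes above background, 56.3% did either. The mesenchymal genes DCN and LUM lay above background in replicate 2 only. The widest difference among the markers was that of the epithelial gene KRT19. It averaged 7.73 in replicate 2 and 5.77, below background, in replicate 1 (limma, adjusted p = 4.63e-06). The part of such differences in the results was not tested.

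As background, MYC, MYCN and MYCL are the activating partners, and each needs MAX to bind DNA. The MXD proteins, MXI1 and MNT also pair with MAX and recruit SIN3 repressor complexes to the same sites, so that MAX is shared between activation and repression. MLX is a MAX-like factor that pairs with the glucose-responsive factors MLXIP (MondoA) and MLXIPL (ChREBP), and also with MXD1, MXD4 and MNT. In medulloblastoma, amplification of MYC or MYCN marks tumours of poor outcome.

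The E-box in its palindromic form reads CACGTG, which is the same on both strands. It was searched in the 250 bases before the start of each promoter of the RefSeq table (build GRCh38.p14). It stood in 6.34% of all 35116 promoters and in 7.41% of the 19713 promoters of genes named on the arrays. Of the network, 9 genes had 12 promoters in the table, and 3 of those promoters held it, those of MXD4, MNT and MLX. MYC had no promoter in the table, so its promoter was not searched. In the stretches printed here the E-box is in capitals, and each reads 5′ to 3′ on the strand of its gene. They are shown because, of the network members that could be searched, these are the ones whose own promoters carry the sequence that the network binds.

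MXD4, chr4:2262315-2262359, minus strand: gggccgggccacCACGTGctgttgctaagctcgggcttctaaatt
MNT, chr17:2401221-2401280, minus strand: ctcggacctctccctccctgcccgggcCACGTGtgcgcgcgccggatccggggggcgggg
MLX, chr17:42567023-42567082, plus strand: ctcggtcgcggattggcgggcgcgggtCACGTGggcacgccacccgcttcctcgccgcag

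The E-box ended 232 bases before the start of MXD4, 187 before that of MNT and 44 before that of MLX. Between the replicates MXD4 was called higher, MLX was called lower and MNT did not pass, so these 3 genes shared no direction. A match to these letters is a description of the sequence and not a measured binding site.

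Network members were partly above background, and they differed between the replicates in both directions. MYC, MAX, MXD3, MXD4, MNT and MLX, 6 of the 10 genes, lay above background, a share like the 60.6% of all named genes. At the level of gene means, 6 of 10 members passed limma's test at an adjusted p under 0.05, where 49.8% of all named genes did. MYC, MXD3 and MXD4 rose in replicate 2, and MAX, MLX and MYCN fell, against 25.5% of all genes higher and 24.2% lower. The median difference of the members was -0.14, against -0.0063 for all genes. The share of members that passed is thus near that of all genes. A call with a difference of 1 or more was reached by MAX alone, which fell; of all genes, 4% fell and 4.97% rose that far. The 6 of 10 gene means and 9 of 13 rows whose arrays did not overlap between the replicates compare with 52.4% of genes and 51.7% of rows overall.

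**Figure D1:**
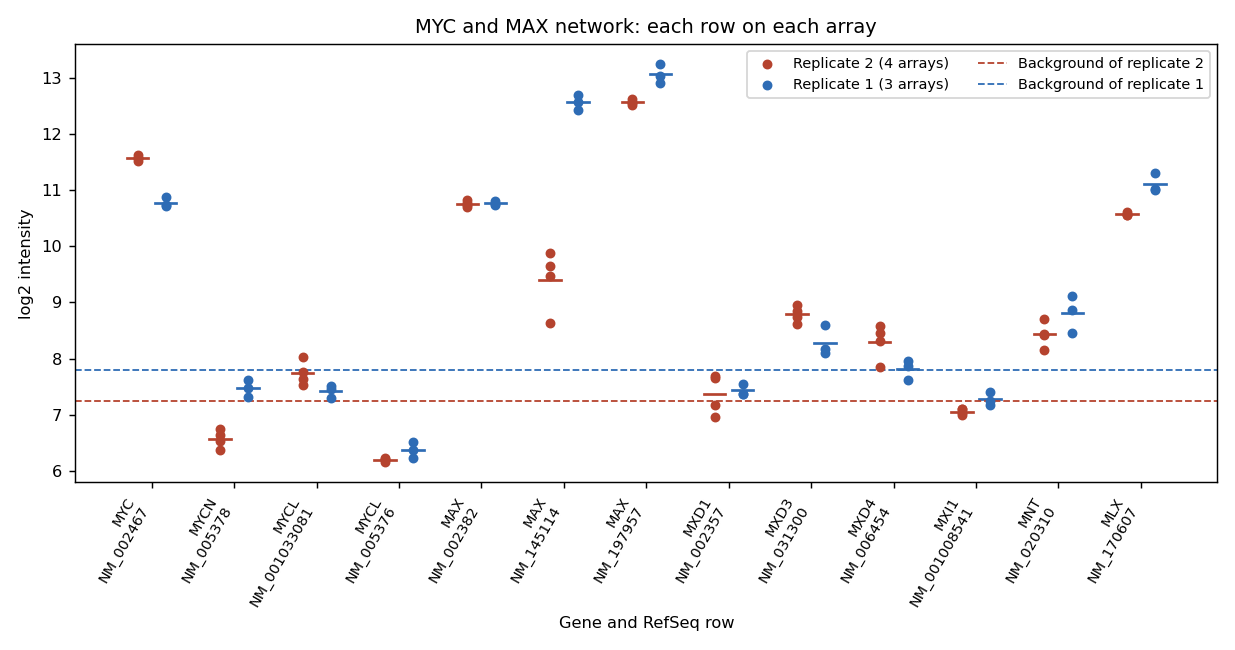
The log2 intensity (vertical axis) of each of the 13 rows of the network on each array, with replicate 2 (4 arrays, red) left of replicate 1 (3 arrays, blue), a short line at the mean of each replicate and dashed lines at the background of each replicate (7.24 and 7.79). MYC, MAX and MLX lie far above background, MYCN and MXI1 below that of their replicate, and the middle row of MAX spans the widest gap.

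MYC, the activator that drives growth and ribosome production, read 11.62, 11.58, 11.58 and 11.51 on the arrays of replicate 2, against 10.88, 10.71 and 10.73 on those of replicate 1. The groups did not overlap, and the 4 arrays of replicate 2 lay within 0.11 of each other. MYC was 0.80 ± 0.09 (SE) higher in replicate 2, or 1.74-fold (limma, adjusted p = 7.98e-05). Leaving out any 1 array kept this difference between 0.77 and 0.85. The mean level over the replicates was 11.17 ± 0.57 (SD, n = 2).

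MYCN, the paralogue of MYC that is amplified in neuroblastoma, read 6.53, 6.63, 6.75 and 6.38 in replicate 2, against 7.32, 7.62 and 7.48 in replicate 1. Every array lay below the background of its replicate. The gene passed the test in the lower direction (limma, adjusted p = 0.000231), but both groups were at background, so no fold is given. The background itself was lower in replicate 2, 7.24 against 7.79 in replicate 1, and its part in the MYCN difference was not tested.

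MYCL, first found amplified in lung cancer, was read by 2 rows that did not move alike. Row NM_001033081 had 7.77, 7.63, 8.02 and 7.53 in replicate 2, against 7.45, 7.29 and 7.51 in replicate 1. It lay above the background of replicate 2 and below that of replicate 1, and its difference of 0.32 ± 0.13 (SE) did not pass (limma, adjusted p = 0.0637), though it passed without array 4 of replicate 2 (adjusted p = 0.0393). Row NM_005376 averaged 6.20 ± 0.03 in replicate 2 (SD, 4 arrays) and 6.37 ± 0.14 in replicate 1 (SD, 3 arrays), below background in both. The gene mean differed by 0.07 ± 0.10 (SE, limma, adjusted p = 0.561), and its arrays overlapped.

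MAX, the obligate partner of the MYC proteins, had the widest differences within the network, and they sat in 1 of its 3 rows. Row NM_145114 read 9.87, 9.65, 9.47 and 8.62 in replicate 2, against 12.69, 12.43 and 12.57 in replicate 1. Row NM_197957 read 12.57, 12.62, 12.56 and 12.51 in replicate 2, against 13.03, 13.25 and 12.91 in replicate 1. Row NM_002382 read 10.78, 10.70, 10.74 and 10.82 in replicate 2, against 10.75, 10.74 and 10.80 in replicate 1. Thus the first row was far lower in replicate 2, the next slightly lower, and the arrays of the last overlapped.

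NM_145114 fell by 3.16 ± 0.26 (SE), and replicate 1 was 8.92-fold higher (limma over all rows, adjusted p = 2.32e-05). NM_197957 fell by 0.50 ± 0.10 (SE, adjusted p = 0.00315, limma) and NM_002382 differed by -0.0036 ± 0.08 (SE, adjusted p = 0.977, limma). Over all 13 rows, 3 passed as higher and 4 as lower, or 7 against a background of 48.8% of all rows. NM_145114 was the only member row that passed with a difference of 1 or more, which 4.79% of all rows did as lower and 5.43% as higher. NM_145114 was also the least even row among arrays of replicate 2, with a range of 1.25, where the 95th percentile of all rows was 0.82. Its lowest value there was 8.62, on array 4.

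Within each array, the gap of NM_145114 to NM_197957 averaged -3.16 ± 0.51 in replicate 2 (SD, 4 arrays) and -0.50 ± 0.27 in replicate 1 (SD, 3 arrays). Against NM_002382 it averaged -1.35 ± 0.58 in replicate 2 and 1.80 ± 0.13 in replicate 1, so that the order of these rows turned round. The change of each of the 3 gaps between rows had an exact two-sided permutation p of 0.0286 over the 35 arrangements of the arrays, the smallest they can give, and 0.0286 after adjustment over the 3 gaps. The gaps were chosen after the values were seen, so this p adds no support to the change. It also treats technical repeats of 2 extracts as exchangeable. Because the gaps are differences within an array, they show that the rows changed unequally, not which of them stayed the same.

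The differences of the 3 MAX rows spanned 3.15 on the log2 scale. Among the 1464 genes with more than 1 row, the median span was 0.34, and 5 genes including MAX (0.342%) had a span at least as wide. The span of MYCL was 0.50, which 35.9% of these genes reached. Which exons the probes of each MAX row read is not given in the sources used here.

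As the mean of its rows, MAX averaged 10.91 in replicate 2 and 12.13 in replicate 1, a fall of 1.22 ± 0.11 (SE, limma, adjusted p = 3.45e-05). Without NM_145114, an alternative chosen after the data were seen, the mean of the other 2 rows fell by 0.25 (limma, adjusted p = 0.0277). With the brightest row in place of the mean it fell by 0.50. The size of the MAX gene difference thus depended on that row. Its direction held without that row only through NM_197957, which is also the brightest row, while NM_002382 differed by -0.0036.

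**Figure D2:**
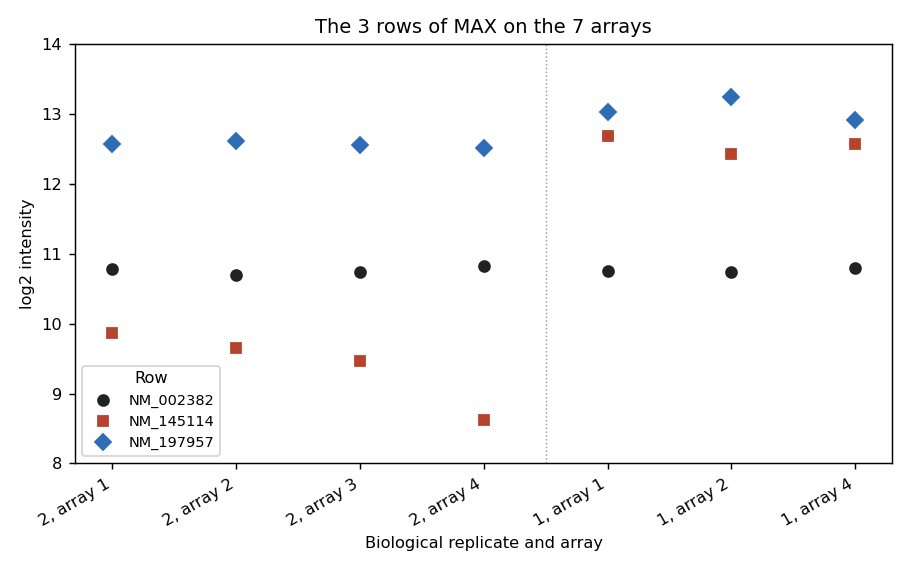
The log2 intensity (vertical axis) of the 3 MAX rows on each array (horizontal axis, the 4 arrays of replicate 2 left of the dotted line and the 3 of replicate 1 right of it), with 1 marker shape per row. NM_145114 stands at 8.62 to 9.87 in replicate 2 and at 12.43 to 12.69 in replicate 1, while NM_002382 stays between 10.70 and 10.82 on all 7 arrays.

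Of the repressive partners of MAX, MXD1, which replaces MYC on MAX during differentiation, read 7.69, 6.95, 7.65 and 7.18 in replicate 2, against 7.38, 7.37 and 7.55 in replicate 1. The mean lay above background in replicate 2 only. The arrays overlapped, and those of replicate 2 spread over 0.74, against a median of 0.30 for all genes. The difference was -0.06 ± 0.18 (SE, limma, adjusted p = 0.791).

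MXD3, the member of the family linked to proliferating neural precursors in the mouse, read 8.84, 8.95, 8.74 and 8.61 in replicate 2, against 8.09, 8.59 and 8.17 in replicate 1. The groups came close but did not overlap. MXD3 was 0.50 ± 0.14 (SE) higher in replicate 2, or 1.42-fold (limma, adjusted p = 0.0142). The call ended without array 1 of replicate 1 (adjusted p = 0.0613) and without array 4 of replicate 1 (adjusted p = 0.0544).

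MXD4, a repressor of differentiating cells, read 7.85, 8.32, 8.57 and 8.45 in replicate 2, against 7.62, 7.95 and 7.87 in replicate 1. The groups overlapped through array 1 of replicate 2, which lay below arrays 2 and 4 of replicate 1. The difference of 0.49 ± 0.17 (SE) passed narrowly (limma, adjusted p = 0.0376). It no longer passed without any 1 of 5 arrays, namely 1 and 4 of replicate 1 (adjusted p = 0.138 and 0.0718) and 2, 3 and 4 of replicate 2 (adjusted p = 0.0623, 0.0875 and 0.0865).

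MXI1, a repressor that also antagonises MYC, read 7.09, 6.999, 7.09 and 7.03 in replicate 2, against 7.25, 7.40 and 7.17 in replicate 1. Its arrays did not overlap, but both replicates lay below background and the difference of -0.22 ± 0.09 (SE) did not pass (limma, adjusted p = 0.0685). This gene was read by 1 row, NM_001008541.

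MNT, the broadly expressed repressor that pairs with MAX in cycling and resting cells, read 8.41, 8.71, 8.44 and 8.15 in replicate 2, against 8.86, 9.12 and 8.45 in replicate 1. The arrays overlapped, and the difference of -0.38 ± 0.17 (SE) did not pass (limma, adjusted p = 0.0968). With array numbers taken as pairs in a block, the difference of -0.39 passed (limma, adjusted p = 0.00887), and it also passed without array 4 of replicate 1 (adjusted p = 0.0224) or array 2 of replicate 2 (adjusted p = 0.0466). On each of the array numbers 1, 2 and 4, the array of replicate 2 was the lower.

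MLX, the partner of MondoA and ChREBP, read 10.57, 10.55, 10.61 and 10.55 in replicate 2, against 11.01, 11.31 and 10.998 in replicate 1. The 4 arrays of replicate 2 lay within 0.06 of each other and below all those of replicate 1. MLX fell by 0.54 ± 0.10 (SE), and replicate 1 was 1.45-fold higher (limma, adjusted p = 0.00184).

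**Figure D3:**
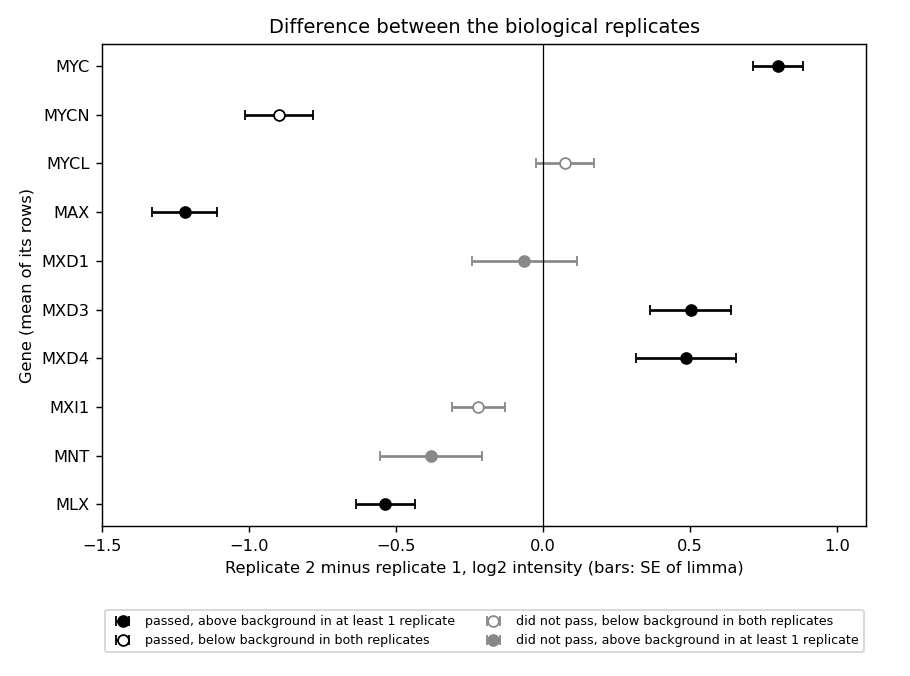
The difference between the biological replicates, replicate 2 minus replicate 1 (horizontal axis, log2 intensity), for the gene mean of each member, with SE bars from limma. Black marks passed an adjusted p of 0.05 and grey ones did not, and open marks were below background in both replicates. MYC, MXD3 and MXD4 lie right of 0 and MAX, MYCN and MLX left of it.

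The genes whose centred profile over the 7 arrays was nearest to that of a member were named from 9697 other genes above background in both replicates, with the root mean square distance on the log2 scale as the measure. For MYC these were COPE, a coatomer subunit (0.021), PMPCA of the mitochondrial processing peptidase (0.038), ERF, a repressor of the ETS family (0.039), DEAF1 (0.054) and PLP2 (0.055). None of these 5 is in a list used here. The nearest gene to MAX was KCNV2, a potassium channel subunit (0.039), to MXD3 ROM1 (0.051), to MXD4 the phosphatase subunit PPP2R5E (0.076), to MNT TATDN2 (0.055) and to MLX GAPVD1 (0.033). The arrays behind each profile come from only 2 extracts.

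Genes that bind, degrade or regulate the network proteins moved in both directions. Among cofactors and further partners, 25 of 26 genes were measured and all 25 lay above background. In replicate 2, 5 were higher, 9 were lower and 11 did not pass, or 56% passed, with a median difference of -0.06. Of all genes above background, 56.3% passed. MGA, a further partner of MAX, had no matched row. MLXIP read 11.60, 11.46, 11.64 and 11.61 in replicate 2, against 10.91, 10.67 and 11.01 in replicate 1, and rose by 0.72 ± 0.10 (SE, limma, adjusted p = 0.00047). The partner of MLX was thus higher in the replicate where MLX was lower. MLXIPL, as the mean of 4 rows, differed by 0.24 ± 0.09 (SE, limma, adjusted p = 0.0597), and passed in the blocked fit (adjusted p = 0.0492) and without array 2 of replicate 1 (adjusted p = 0.0266). Of its rows, only that with the largest difference, 0.38, passed by itself (limma over all rows, adjusted p = 0.0147).

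ZBTB17 (MIZ1), through which MYC represses genes, read 10.54, 10.52, 10.53 and 10.51 in replicate 2, against 9.77, 9.46 and 9.74 in replicate 1, and rose by 0.87 ± 0.10 (SE, limma, adjusted p = 0.000108). CCNT1, the cyclin of the elongation kinase P-TEFb, rose by 0.70, and RUVBL2, a helicase of chromatin complexes, rose by 0.55. The largest fall was that of EP400, the ATPase of the TIP60 acetyltransferase complex, which read 9.24, 9.10, 9.31 and 9.68 in replicate 2, against 10.74, 10.70 and 10.44 in replicate 1. EP400 fell by 1.30 ± 0.14 (SE, limma, adjusted p = 0.000101). ACTL6A of the same kind of complex fell by 0.93, the elongation factor PAF1 fell by 0.60, and SIN3A, the scaffold recruited by the MXD proteins, fell by 0.53. The SIN3A call was narrow (limma, adjusted p = 0.0474) and ended without any 1 of 6 arrays, all but array 2 of replicate 1 (adjusted p = 0.0515 to 0.171). The acetyltransferase KAT5 had a difference of -0.0082.

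Of the genes of MYC protein turnover, 20 of 22 were measured and 17 lay above background. In replicate 2, 5 were higher, 6 were lower and 9 did not pass (55% passed), and the median was -0.11. Of all genes 49.8% passed, and of those above background 56.3%. The count of 11 that passed was 7 without array 4 of replicate 1, a fit in which 43.4% of all genes passed. The phosphatase 2A inhibitors SET and CIP2A, which keep MYC from being dephosphorylated, rose by 0.98 and 0.91. The ubiquitin ligase STUB1 rose by 0.68. USP7, a deubiquitinase, read 11.87, 12.03, 11.95 and 11.80 in replicate 2, against 13.05, 13.27 and 13.05 in replicate 1, and fell by 1.21 ± 0.10 (SE, limma, adjusted p = 2.06e-05). The F-box gene FBXL14 was below background in replicate 2, at 6.43, and averaged 8.17 in replicate 1, so that replicate 1 was at least 1.91-fold higher.

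FBXO32 fell by 0.66 as the mean of rows at -0.15 and -1.18. The row at -1.18 averaged 6.39 in replicate 2 and 7.56 in replicate 1, below background in both. The row at -0.15 lay above background in both and did not pass (limma over all rows, adjusted p = 0.239). SKP2, the ligase that both degrades and co-activates MYC, fell by 0.45 as the mean of rows at 0.09 and -0.99, and its call ended without any 1 of 5 arrays, 1, 2 and 4 of replicate 1 and 1 and 3 of replicate 2 (adjusted p = 0.0572 to 0.11). Like MAX, these genes were read differently by their rows. FBXW7, the main ligase for phosphorylated MYC, differed by 0.13 (limma, adjusted p = 0.361), and it was chosen after its values were seen. PPP2R5A had a difference of -0.03.

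The regulators of MYC transcription and of its mRNA were all measured and all 20 lay above background. In replicate 2, 9 were higher, 6 were lower and 5 did not pass (75% passed), and their median was 0.20, against 56.3% passing among all genes above background. With any 1 of the 7 arrays left out, 10 or 11 of the 20 passed, in place of 15, while 42.6% to 47.2% of all genes did. The share among genes above background was not counted in those fits, so these counts have no like share beside them. ZFP36, which destabilises mRNAs with AU-rich elements, rose by 1.05, E2F4 rose by 0.63, YY1 by 0.61 and HNRNPK by 0.40. TCF7L2, the WNT pathway factor that acts on the MYC gene, read 8.80, 8.42, 8.51 and 8.99 in replicate 2, against 9.58, 10.17 and 9.99 in replicate 1. TCF7L2 fell by 1.23 ± 0.18 (SE, limma, adjusted p = 0.000412). RBL1 fell by 0.57 and CNBP by 0.50, while CTCF had a difference of 0.10. The mRNA stabiliser ELAVL1 fell by 0.98, with overlapping arrays, and its call was lost in the blocked fit (limma, adjusted p = 0.0787) and without any 1 of 5 arrays, 2 and 4 of replicate 1 and 2, 3 and 4 of replicate 2 (adjusted p = 0.0584 to 0.0873).

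**Figure D4:**
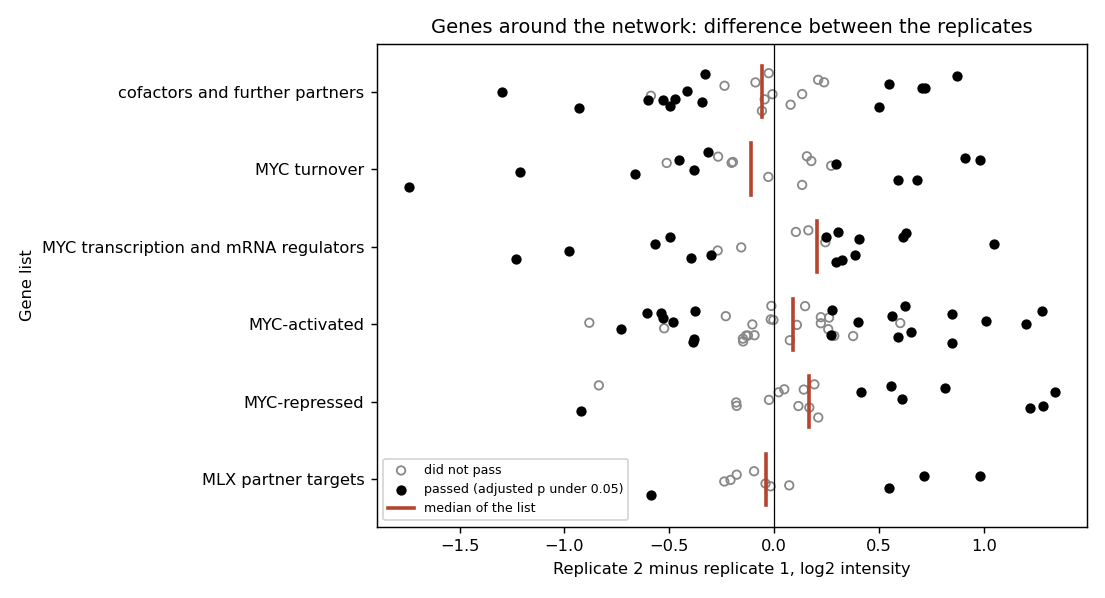
The difference between the biological replicates, replicate 2 minus replicate 1 (horizontal axis, log2 intensity), of every measured gene in the 6 lists around the network, with filled marks for genes that passed an adjusted p of 0.05, open marks for those that did not and a red line at the median of each list. The medians lie between -0.11 and 0.20, and single genes reach -1.74 and 1.34.

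Genes that MYC is known to activate moved in both directions while MYC was higher. All 42 of them were measured and 41 lay above background. In replicate 2, 12 were higher, 8 were lower and 22 did not pass. The share that passed was 47.6%, against 49.8% of all genes and 56.3% of those above background. The median difference was 0.09. HSPE1, the mitochondrial co-chaperonin, read 9.68, 10.26, 10.18 and 9.98 in replicate 2, against 8.57, 8.77 and 8.92 in replicate 1, and rose by 1.27 ± 0.15 (SE, limma, adjusted p = 0.000138). RRS1 of ribosome assembly rose by 1.20, PAICS of purine synthesis by 1.01 and SRM, the spermidine synthase, by 0.85. ODC1, the enzyme before SRM in polyamine synthesis and a classical MYC target, read 13.83, 13.99, 13.74 and 13.70 in replicate 2, against 14.51, 14.77 and 14.35 in replicate 1. It fell by 0.73 ± 0.12 (SE, limma, adjusted p = 0.00101), so that these neighbouring enzymes differed in opposite directions. DKC1 of the small nucleolar RNPs fell by 0.60, CTPS1 by 0.54 and the RNA polymerase I subunit POLR1B by 0.53. The POLR1B call was lost in the blocked fit (limma, adjusted p = 0.0511) and without any 1 of 5 arrays, 1, 2 and 4 of replicate 1 and 2 and 4 of replicate 2 (adjusted p = 0.0556 to 0.141). The phosphatase CDC25A had a difference of -0.0037.

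Of the MYC-activated genes, 35 had a promoter in the RefSeq table, and 12 of their 52 promoters (23.1%) held the E-box, each for a different gene. Among the 12 genes with it, 3 were higher in replicate 2, 2 were lower and 7 did not pass. Among the 23 without it, 6 were higher, 5 were lower and 12 did not pass. The median differences were 0.10 with the E-box and 0.07 without it. The stretches printed here are from genes of this list whose promoters hold the E-box. HSPE1 rose, its divergent neighbour HSPD1 differed by -0.10 (limma, adjusted p = 0.594), SRM rose, ODC1 fell and CDK4 differed by -0.01 (limma, adjusted p = 0.919). HSPE1, SRM and ODC1 were named for the size of their differences, and HSPD1 and CDK4 were chosen after their values were seen. The spread among these genes therefore follows from the choice.

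HSPE1, chr2:197500330-197500378, plus strand: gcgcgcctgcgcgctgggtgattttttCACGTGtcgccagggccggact
HSPD1, chr2:197500330-197500389, minus strand: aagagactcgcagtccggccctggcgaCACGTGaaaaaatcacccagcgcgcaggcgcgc
SRM, chr1:11060185-11060244, minus strand: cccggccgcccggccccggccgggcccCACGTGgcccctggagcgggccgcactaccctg
ODC1, chr2:10448013-10448068, minus strand: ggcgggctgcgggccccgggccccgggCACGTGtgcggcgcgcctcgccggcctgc
CDK4, chr12:57752494-57752553, minus strand: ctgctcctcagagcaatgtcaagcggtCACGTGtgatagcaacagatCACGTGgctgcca

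The HSPE1 and HSPD1 stretches overlap, and their E-box is the same site read from opposite strands. Its distance to the start was 16 bases for HSPE1 and 82 for HSPD1. The CDK4 stretch holds 2 E-boxes.

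Of the genes that MYC is known to repress, all 19 were measured and 15 lay above background, and in replicate 2 there were 7 higher, 1 lower and 11 that did not pass (42.1% passed), with a median of 0.17. Of all genes, 49.8% passed, 25.5% as higher and 24.2% as lower. CDKN1C, counted as higher, lay below background in both replicates, at 6.47 in replicate 2 and 5.92 in replicate 1. With features at background removed, 6 of 15 were higher and 1 was lower. In that fit 56.5% of 10430 genes passed, 3033 as higher and 2865 as lower. CDKN1B (p27), a brake on the cell cycle, read 8.35, 8.59, 8.67 and 8.55 in replicate 2, against 7.11, 7.36 and 7.30 in replicate 1. Replicate 1 lay below its background, so CDKN1B was at least 1.68-fold higher in replicate 2 (limma, adjusted p = 2.4e-05), and the stress gene GADD45G was at least 1.44-fold higher on the same footing. CEBPD, a differentiation factor, rose by 1.22 and the integrin ITGB1 rose by 0.81. The matrix protein THBS1 fell by 0.92, and NDRG1 had a difference of 0.02. The promoters of GADD45G and GADD45B were the 2 of 19 in this list with the E-box.

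Of 12 targets of the MLX partners, 11 were measured and 6 lay above background, and in replicate 2 there were 3 higher, 1 lower and 7 that did not pass (36.4% passed, against 49.8% of all genes), with a median of -0.04. FASN, the fatty acid synthase, read 12.61, 12.58, 12.62 and 12.83 in replicate 2, against 11.75, 11.60 and 11.69 in replicate 1, and rose by 0.98 ± 0.10 (SE, limma, adjusted p = 4.9e-05). KLF10 was at least 1.36-fold higher in replicate 2, against the background of replicate 1. ELOVL6 passed in the higher direction from a replicate 1 mean below background, with overlapping arrays, and its call ended without any 1 of 5 arrays, 1 and 4 of replicate 1 and 2, 3 and 4 of replicate 2 (adjusted p = 0.0608 to 0.145). PFKFB3, which makes the activator of phosphofructokinase, fell by 0.59, and G6PC1 had a difference of -0.02 with both replicates below background. TXNIP, the best known target of MondoA and MLX, read 9.30, 9.44, 9.44 and 9.39 in replicate 2, against 9.58, 9.46 and 9.44 in replicate 1. Its difference of -0.10 did not pass (limma, adjusted p = 0.39), and it was chosen after its values were seen.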

How the data were processed

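The deposited table holds log2 intensities of 7 arrays. Per the submitters' processing notes the authors used RMA and limma, without versions, and the base of the logarithm was taken as 2 by the convention of RMA. The sorted columns were equal within 0.002. Rows were named by accession through a RefSeq gene table (GRCh38.p14). Of the rows, 19125 matched 1 symbol and 4875 matched none, and unmatched rows entered only the fits over all rows. Rows of a gene were averaged.

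The replicates were compared with limma 3.58.1 in R 4.3.3 (lmFit with eBayes; p-values adjusted by Benjamini-Hochberg over all rows or all named genes; threshold 0.05), as replicate 2 minus replicate 1. As a check of the code only, the fit was run on simulated data with noise independent between arrays, so it bears on no call here. A difference was given as a lower limit where 1 replicate lay below its background. Same-numbered arrays deviated together (r across rows of 0.21 for array 1, 0.35 for array 2 and 0.40 for array 4; arrays of different numbers had -0.38 to 0.20, the highest for array 3 of replicate 2 with array 4 of replicate 1), so a second fit took array numbers as pairs, in a block. There array 3 of replicate 2 has no partner. The pairing comes from this check and not from the labels.

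Members and lists were chosen with earlier results of these data known. Named genes were all members, the partners MGA, MLXIP, MLXIPL and ZBTB17, in each list up to 4 genes with the largest difference in each direction among those that passed and were above background in a replicate, the gene with the smallest difference, and the genes of nearest profile. A gene that this rule selected is not reported here. Alternatives were the block, leaving out each array, another centring of the arrays, a trended and robust eBayes, removal of features at background, the brightest row per gene and other backgrounds. The number of arrays limits the precision. Replicate 1 has no array numbered 3 among those used.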

Additional observations from a re-analysis of the deposited data

Results flagged for a closer look

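In 3 of 73 rows and genes examined, 1 of the 4 arrays of replicate 2 stood apart from the other 3 by Dixon's ratio, a test that chance passes in about 1 of 20 groups. None of the 3 is a member of the network. PAF1 read 12.985 on array 1, below 13.07 to 13.08 on the others. CTPS1 read 10.775 on array 1, below 11.04 to 11.08. FASN read 12.830 on array 4, above 12.58 to 12.62. Genes of the lists that the naming rule did not select were not put through this test, and larger gaps stood among them. SLC1A5 read 7.544 on array 3 of replicate 2, against 13.621, 13.188 and 13.275 on arrays 1, 2 and 4. GADD45A read 6.918 on array 3, against 9.618, 9.733 and 10.218. Neither gene passed between the replicates.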

How the results depend on the processing

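Of 107 recomputed counts, 105 stayed within 1.5 times the count given. One exception was the members above background, which were all 10 at the 90th percentile of olfactory receptor genes, in place of 6. The other was the MYC turnover genes, of which 7 to 10 passed with 1 array left out, in place of 11. In those fits 42.6% to 47.2% of all genes passed, in place of 49.8%. Of 949 recomputed differences of members and named genes, 871 kept their direction and side of the threshold, 48 lost the call, 11 gained it and 19 changed sign. Those that changed sign were all close to 0. With the array number as a replicate block, MAX row NM_002382 was at 0.0037 and KAT5 at 0.046. With 1 array left out, MAX row NM_002382 ranged from -0.025 to 0.017, MXD1 from -0.17 to 0.075, KAT5 from -0.089 to 0.074, PPP2R5A from -0.072 to 0.0033, CDC25A from -0.16 to 0.11, NDRG1 from -0.16 to 0.15 and G6PC1 from -0.054 to 0.024. The block gave a call to MNT, MLXIPL and TATDN2 and ended those of ELAVL1 and POLR1B, and it changed no other call among the members and named genes. It moved no count by more than 1.5 times. With the brightest row, FBXO32 was at -0.15 and no longer passed (limma, adjusted p = 0.241). The cause of these changes was not tested.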
